A study of Mus musculus with 6 samples.

Results

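The 4 Janus kinase genes Jak1, Jak2, Jak3 and Tyk2 and the transcription factor genes Stat3, Stat4, Stat5a, Stat5b and Stat6 were followed in leukemic and normal mouse blood progenitors. All probe sets of the deposited table that carry exactly 1 of these 9 gene symbols were taken, which gave 18 of 28821 probe sets. A further probe set that carries the symbols of both Jak3 and Insl3 was left out of the count and is described beside Jak3. The wild-type group was 3 samples from the bone marrow of MF1 mice. The leukemia group was 3 samples, from 3 numbered mice, of spleen cells of MF1 wild-type recipients that had been lethally irradiated and given progenitors transduced with AE9a, a shortened form of the AML1-ETO fusion protein. Both groups were sorted as Lin-/Sca1-/cKit+ cells and came from mice aged 12 to 16 weeks. Spleen and marrow, transplantation and leukemia were not crossed in this design, so their contributions cannot be told apart. The comparison asks which genes set leukemic progenitors apart from normal cells of the same surface type.

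Janus kinases are tyrosine kinases bound to the inner tails of cytokine receptors that have no kinase activity of their own. A bound cytokine brings the receptor chains together, the kinases phosphorylate each other and the receptor, and STAT proteins dock there, become phosphorylated, pair up and enter the nucleus to switch on genes. In blood formation Jak2 serves the receptors for erythropoietin, thrombopoietin and the interleukin-3 family, Jak3 serves the receptors that share the common gamma chain, and Jak1 and Tyk2 serve interferon and interleukin-6 type receptors. Stat5a and Stat5b are close relatives activated by many growth factors of blood cells, Stat3 responds to interleukin-6 and G-CSF, Stat4 to interleukin-12, and Stat6 to interleukin-4 and interleukin-13. These roles rest on phosphorylated protein, whereas the arrays measured transcript level alone.

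Upstream sequence was set beside the expression values because AML1, known in the mouse as Runx1, binds DNA at short RUNX motifs and STAT dimers bind at paired half-sites. RefSeq start sites of GRCm38.p6 were found for all 9 genes, 12 in all, and the 250 bases before each were searched on both strands for the RUNX motifs TGTGGT and TGCGGT and the STAT motif TTCNNNGAA, also with 4 bases in place of 3 between TTC and GAA. A RUNX motif was found in 2 of the 12 windows, a count close to the background of 18.6% of all 32851 RefSeq windows of the same length. None of the 12 held either form of the STAT motif, against 12.4% of all windows, which says only that these letters were not in these windows. The windows with a RUNX motif were those of Tyk2, where it lies 23 bases before the start site and reads on the opposite strand, and of Stat6, where it lies 151 bases before it. Both are printed 5′ to 3′ with the motif in capitals, followed by the window of the more upstream of the Stat4 start sites, shown because Stat4 changed most, which holds no match.
Tyk2, chr9:21131276-21131525, minus strand: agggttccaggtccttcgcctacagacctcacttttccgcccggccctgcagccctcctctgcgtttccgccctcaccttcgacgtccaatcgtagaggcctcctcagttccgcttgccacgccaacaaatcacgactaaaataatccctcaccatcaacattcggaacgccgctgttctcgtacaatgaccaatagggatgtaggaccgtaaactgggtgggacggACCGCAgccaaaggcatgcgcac
Stat6, chr10:127642736-127642985, plus strand: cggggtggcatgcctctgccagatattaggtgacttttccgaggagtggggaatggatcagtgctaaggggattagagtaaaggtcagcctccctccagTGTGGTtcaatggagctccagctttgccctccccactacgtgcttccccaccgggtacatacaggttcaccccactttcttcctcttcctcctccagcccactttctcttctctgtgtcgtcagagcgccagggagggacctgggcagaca
Stat4, chr1:51986898-51987147, plus strand: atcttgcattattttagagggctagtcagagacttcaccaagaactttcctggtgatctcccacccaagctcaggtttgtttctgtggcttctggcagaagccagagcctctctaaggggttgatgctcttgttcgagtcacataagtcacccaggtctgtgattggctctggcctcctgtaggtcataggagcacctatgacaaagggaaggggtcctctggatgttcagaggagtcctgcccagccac
In the RefSeq annotation Stat5b, Stat5a and Stat3 follow one another with no other coding gene between them.

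The cells and arrays were checked before the genes were compared. Kit, the receptor used in the sort, lay at 10.35 to 10.42 log2 in wild-type and at 9.34 to 9.80 in leukemia, and no probe set named Ly6a, the gene of Sca1, was used here. All 8 listed myeloid progenitor genes, Kit among them, were lower in leukemia, and their summed intensity was 36235 to 44442 in wild-type against 978 to 1373. The summed intensity of 8 measured mast cell and basophil markers was 5438 to 6148 in wild-type and 13588 to 23681 in leukemia (5 higher and 1 lower by the test), and that of 6 measured erythroid markers was 3458 to 6035 and 5123 to 8022 (4 higher). Of all tested genes 16.6% passed as higher and 24.7% as lower. Some markers, such as Mpo in leukemia and Cd200r3 in wild-type, were too dim in 1 group and were tested through the other alone. Arrays correlated at 0.992 to 0.994 within wild-type, 0.969 to 0.978 within leukemia and 0.902 to 0.925 between groups. Leukemia replicate 1 stood apart, with the highest 18S ribosomal RNA signal (12.35 log2, against 11.14 and 11.25 in the other leukemia arrays and 7.77 to 9.41 in wild-type) and the largest Gapdh 3′ minus 5′ difference (0.31, against 0.01 and 0.08, and -0.14 to -0.06 in wild-type). In both measures all leukemia arrays lay above all wild-type arrays, so these measures cannot be told apart from the group. The Actb 3′ minus 5′ difference overlapped (0.31 to 0.70 in leukemia, 0.32 to 0.50 in wild-type). Leukemia replicate 1 was also the only leukemia array with the recorded hybridization date of the wild-type arrays. Arrays that share this date are called a fluidics run here. The part of these measures in the gene results was not tested, and results are given with and without this array where it alters a call. Fewer cells of a type and less RNA per cell cannot be told apart in such bulk samples.

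The kinases and the transcription factors each divided. Jak1 and Jak2 rose in the leukemia cells and Jak3 fell, and of the Stat genes Stat4 fell most, by 4.21 on the log2 scale, while Stat5a fell by 0.43 in a call that depended on single arrays. Tyk2, Stat3, Stat5b and Stat6 did not pass the test. With each gene read from its brightest probe set, 2 genes were higher, 3 lower and 4 not past the threshold (limma adjusted p under 0.05 over all 18098 tested probe sets), where 41.2% of all 9715 tested genes passed, 16.6% as higher and 24.7% as lower. The median change of the 9 genes was -0.43, and that of all tested genes was -0.09. Of the 18 probe sets 16 were bright enough to be tested, that is, at or above the 40th percentile of their array on at least 3 arrays, and 5 of these were higher and 4 lower (38.4% of all tested probe sets passed, 17.5% higher and 20.9% lower). Wild-type and leukemia values were apart, with no overlap, for 11 of these 16 probe sets and for 7 of the 9 genes, against 56.6% of all tested probe sets and 59.2% of all tested genes. With so large a background these counts describe the members and do not set them apart. Without leukemia replicate 1 the gene count was 6 (2 higher, 4 lower) and the probe set count 9. Calls over all 18098 tested probe sets then rose from 6946 to 8105.

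**Figure D1:**
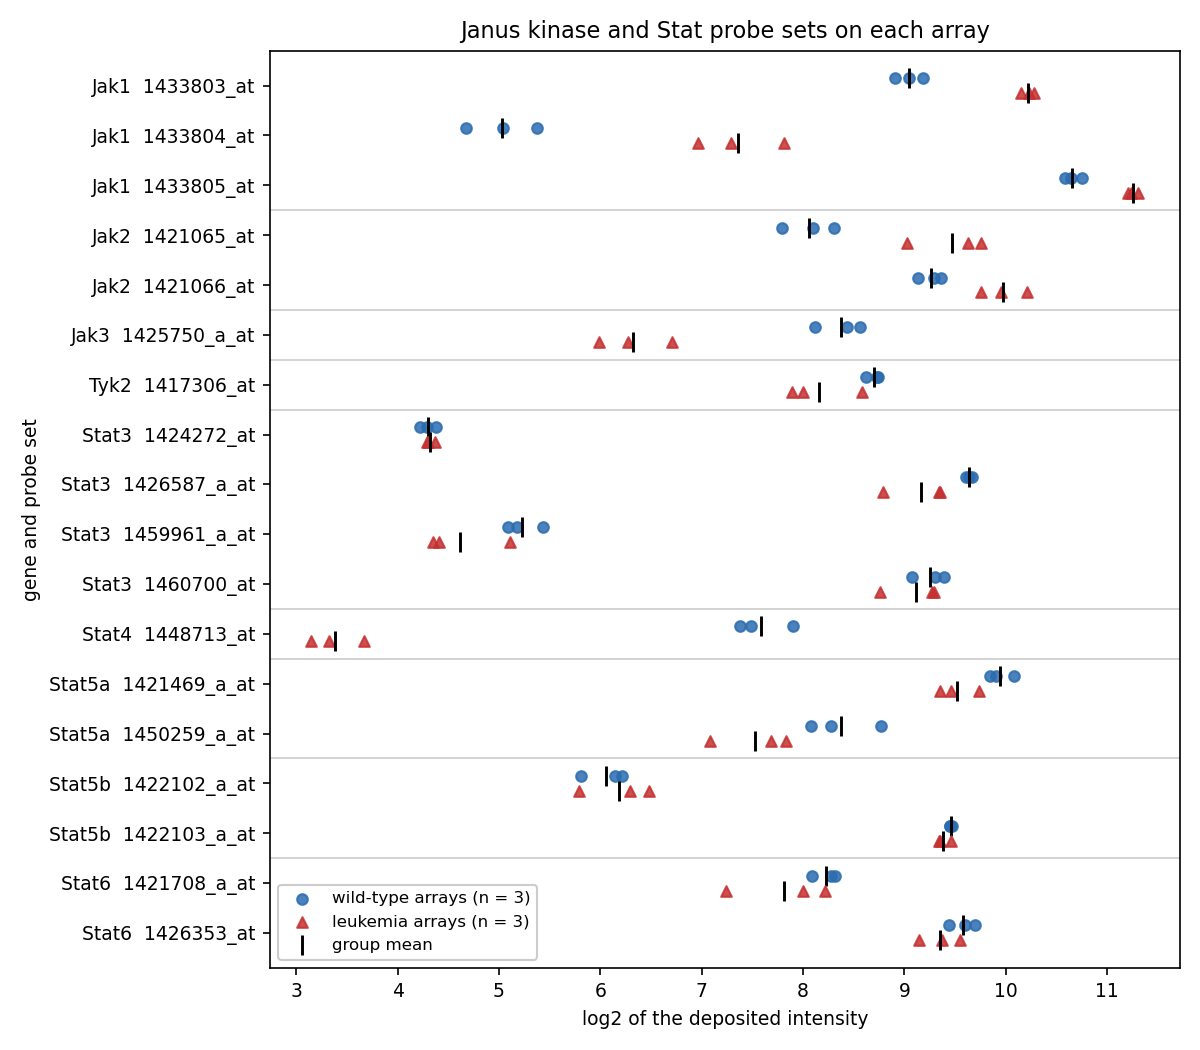
Log2 of the deposited intensity (horizontal axis) of the 18 probe sets on each of the 6 arrays, with wild-type arrays as circles, leukemia arrays as triangles and group means as vertical ticks. All Jak1 and Jak2 probe sets lie higher on every leukemia array, and those of Jak3 and Stat4 lie lower, with Stat4 at 7.38 to 7.90 in wild-type and 3.15 to 3.67 in leukemia.

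Jak1, the kinase of gp130 and interferon receptors, rose with each of its 3 probe sets. The brightest, 1433805_at, read 10.64, 10.75 and 10.59 log2 on wild-type arrays 1 to 3 and 11.24, 11.31 and 11.21 on leukemia arrays 1 to 3. Every leukemia value lay above every wild-type value, and the spread within each group was small beside the step between them. The change was 0.59 ± 0.07 (SE, limma adjusted p = 8.77e-04), a 1.51-fold rise from 10.66 ± 0.08 to 11.25 ± 0.05 (SD, n = 3 each). Probe set 1433803_at read 8.91, 9.04 and 9.18 in wild-type and 10.23, 10.28 and 10.15 in leukemia, again without overlap. It rose by 1.17 ± 0.10 SE, or 2.26-fold (limma adjusted p = 2.40e-04). The dimmest, 1433804_at, read 5.38, 5.04 and 4.68 in wild-type and 6.97, 7.81 and 7.29 in leukemia, and rose by 2.32 ± 0.27 SE, or 5.01-fold (limma adjusted p = 8.33e-04). This probe set lay below the 40th percentile on every wild-type array and entered the test through the leukemia arrays alone.

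The 3 probe sets of Jak1 therefore gave 3 sizes for 1 gene, and where they lie on the transcript could not be checked here. The dimmer the probe set was in wild-type, the larger was its change. Within each array the difference between probe sets moved without overlap between the groups for all 3 pairs, with differences in change of -1.15, 0.58 and 1.73. Each of these has an exact permutation p of 0.1, two-sided, the smallest that 3 against 3 arrays allow (0.15 adjusted over the 9 pairs compared). With 16 added to every intensity before the log the change of the dimmest was 1.88, and the others stayed at 1.15 and 0.59. The mean of the 3 probe sets gave a change of 1.36 for the gene.

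Jak2, the kinase of the receptors for erythropoietin, thrombopoietin and interleukin-3, also rose with both of its probe sets. The brighter, 1421066_at, read 9.29, 9.13 and 9.37 in wild-type and 9.96, 9.75 and 10.21 in leukemia. The lowest leukemia value was 9.75 and the highest wild-type value 9.37. Its change was 0.71 ± 0.14 SE, 1.64-fold (limma adjusted p = 0.00747), from 9.26 ± 0.12 to 9.97 ± 0.23 (SD, n = 3 each). Probe set 1421065_at read 8.30, 7.79 and 8.09 in wild-type and 9.76, 9.02 and 9.63 in leukemia, where replicate 2 was the lowest of the leukemia arrays. It rose by 1.41 ± 0.23 SE, 2.65-fold (limma adjusted p = 0.00334). As for Jak1 the dimmer probe set gave the larger change, by 0.70 (exact permutation p = 0.1). With any 1 array left out the changes of the Jak2 probe sets ran from 0.59 to 0.82 and from 1.27 to 1.63, and all of them passed. Those of the 3 Jak1 probe sets, which passed likewise, ran from 0.56 to 0.64, from 1.11 to 1.24 and from 2.10 to 2.52. The summed mast cell and basophil markers given above were higher in the same arrays, and their part in the rise of Jak1 and Jak2 was not tested.

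Jak3, which works with the common gamma chain and is best known from lymphocytes, fell. Its probe set 1425750_a_at read 8.12, 8.44 and 8.56 in wild-type and 5.99, 6.71 and 6.27 in leukemia, so that the groups were more than 1 log2 unit apart. The change was -2.05 ± 0.22 SE, 4.14-fold lower (limma adjusted p = 6.09e-04), from 8.37 ± 0.23 to 6.32 ± 0.36 (SD, n = 3 each). The leukemia values stood at percentiles 47.9 to 55.4 of their arrays. The probe set 1423021_s_at, which carries both Jak3 and Insl3 and so cannot be given to either, was lower by 1.28 (limma adjusted p = 0.00219), reading 8.45, 8.84 and 8.87 in wild-type and 7.62, 7.55 and 7.15 in leukemia. With any 1 array left out the change of the single-symbol probe set ran from -2.24 to -1.88, and on leukemia replicate 1 alone, the array of the wild-type fluidics run, it was -2.39. Il2rg, the gene of the common gamma chain, was not used here because no probe set of the table carried its symbol alone.

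Tyk2, the kinase paired with Jak1 or Jak2 on interferon and interleukin-12 receptors, was lower without passing. It read 8.62, 8.74 and 8.73 in wild-type and 7.90, 8.59 and 8.001 in leukemia. Replicate 2 of leukemia lay just under the wild-type values and the other 2 leukemia arrays clearly under them. The change was -0.54 (95% confidence interval -1.001 to -0.08, limma adjusted p = 0.0674). It passed without leukemia replicate 2 (-0.75, limma adjusted p = 0.00835) and when the fluidics run was a block (-0.80, limma adjusted p = 0.0276), where the change is that of leukemia replicate 1 against the wild-type mean. That arm is 1 array with no replicate of its own, taken to vary like the other arrays, so its p carries no replication.

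**Figure D2:**
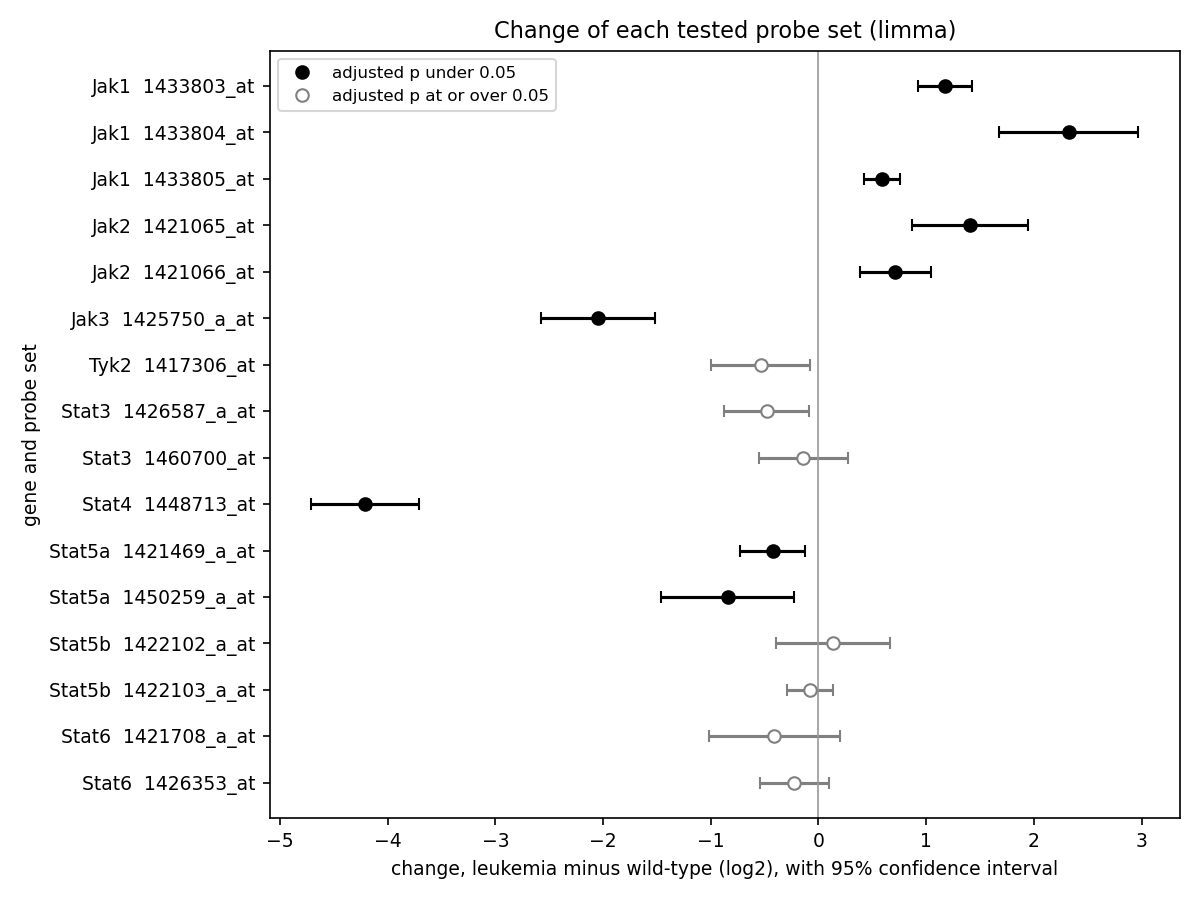
Change of each of the 16 tested probe sets (horizontal axis, leukemia minus wild-type, log2) with its 95% confidence interval, filled where the limma adjusted p is under 0.05. The 5 probe sets of Jak1 and Jak2 lie between 0.59 and 2.32, Jak3 lies at -2.05 and Stat4 at -4.21, and the remaining 9 lie between -0.84 and 0.13.

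Stat4, the interleukin-12 responsive factor of T cells, natural killer cells and some myeloid cells, showed the largest change of the 9 genes. Its single probe set 1448713_at read 7.38, 7.90 and 7.48 in wild-type and 3.67, 3.32 and 3.15 in leukemia. The change was -4.21 ± 0.21 SE (limma adjusted p = 1.91e-05), from 7.59 ± 0.27 to 3.38 ± 0.26 (SD, n = 3 each), which is 18.5-fold lower on this scale. All leukemia values lay at or below percentile 15.3 of their arrays, so the probe set entered the test through the wild-type arrays alone and the size depends on the handling of background. With 16 added before the log the change was -2.98. With any 1 array left out it ran from -4.35 to -4.05. Of all tested probe sets 98.7% had a smaller absolute change.

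The fall of Stat4 and Jak3 came with lower markers of some other cells. The summed intensity of the 6 measured of 13 T cell and natural killer cell markers was 2280 to 2896 in wild-type and 284 to 318 in leukemia. Most of this sum came from Nkg7, a granule membrane protein of cytotoxic cells. Nkg7 fell, reading 11.06 to 11.42 log2 in wild-type and 7.48 to 7.73 in leukemia. Of the other 5, Cd2 and Cd8a lay below the 40th percentile on all arrays, and Thy1 and Ncr1 were too dim to be tested. Cd247, which was tested, was higher in leukemia by 1.36. Its wild-type values lay at or below percentile 27.3, so it was tested through the leukemia arrays alone. The 8 measured of 9 monocyte and macrophage markers summed to 3678 to 5995 in wild-type and 240 to 377 in leukemia, with 6 of 7 tested lower. These 6 lay below the 40th percentile on all leukemia arrays and were tested through wild-type alone. Of all tested genes 16.6% passed as higher and 24.7% as lower, here and for the markers that follow. The 5 measured of 9 B cell markers summed to 287 to 420 and 145 to 295, and of the 2 tested 1 was lower. This was Vpreb1, which lay at or below percentile 36.9 in leukemia and was tested through wild-type alone. The 6 measured of 7 megakaryocyte markers summed to 1724 to 1897 and 301 to 312, with all 5 tested lower. Among these Ppbp and Vwf lay at or below percentiles 24.7 and 25.4 in leukemia and were tested through wild-type alone. The 6 measured of 8 neutrophil markers, none of them bright enough to be tested, summed to 154 to 672 and 97.2 to 103. The 8 measured of 9 stroma and endothelium markers summed to 557 to 628 and 283 to 657. Of the 3 tested 1 was higher and 2 lower. Pecam1, among the 2 lower, lay at or below percentile 19.9 in leukemia and was tested through wild-type alone. Cdh5, Col1a1 and Col3a1 lay below the 40th percentile on all arrays. The part of any of these cells in the levels of Stat4 and Jak3 was not tested.

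Of Stat5a and Stat5b, neighbours in the genome and near relatives as proteins, only Stat5a passed. The direct test of their difference, given below, cannot reach a p under 0.05 with 3 against 3 arrays. The brighter probe set of Stat5a, 1421469_a_at, read 9.91, 9.85 and 10.08 in wild-type and 9.74, 9.36 and 9.46 in leukemia. The groups did not overlap, but leukemia replicate 1 lay close to the lowest wild-type array. The change was -0.43 ± 0.13 SE, 1.34-fold lower (limma adjusted p = 0.0372). The other, 1450259_a_at, read 8.77, 8.08 and 8.28 in wild-type and 7.08, 7.69 and 7.83 in leukemia, and its change was -0.84 ± 0.26 SE, 1.79-fold lower (limma adjusted p = 0.0398). Here leukemia replicate 1 was the lowest of all arrays, whereas with the brighter probe set it was the highest of the leukemia arrays. The call of the brighter was lost without any 1 of the wild-type replicates 1, 2 and 3 (limma adjusted p = 0.0908, 0.0734 and 0.139, changes -0.44, -0.47 and -0.36) and without leukemia replicates 2 or 3 (0.0931 and 0.0859, changes -0.34 and -0.40). It was also lost on centring each array (-0.35, limma adjusted p = 0.0953), without the intensity trend (0.0552), with the replicate block (0.0617) and when the fluidics run was a block (-0.20, limma adjusted p = 0.203). The call of the dimmer was lost without wild-type replicates 1, 2 or 3 (limma adjusted p = 0.123, 0.0573 and 0.0953, changes -0.65, -0.99 and -0.89), without leukemia replicates 1 or 2 (0.0570 and 0.0594, changes -0.62 and -0.92) and with the replicate block (0.0896), and its change was -1.30 with the fluidics run as a block.

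Stat5b was close to its wild-type level with its brighter probe set. That set, 1422103_a_at, read 9.46, 9.46 and 9.47 in wild-type and 9.46, 9.35 and 9.34 in leukemia, the narrowest wild-type spread of the 18 probe sets (SD 0.01). The change was -0.08, with a 95% confidence interval of -0.29 to 0.14 (limma adjusted p = 0.538). Probe set 1422102_a_at read 6.14, 5.81 and 6.21 in wild-type and 5.79, 6.29 and 6.48 in leukemia, with a change of 0.13 (interval -0.39 to 0.66, limma adjusted p = 0.664). The sign of Stat5b was not settled, since the brighter set was at 0.00 after centring of the arrays. Within each array the difference between Stat5a and Stat5b, both by their brighter set, was 0.45, 0.39 and 0.61 in wild-type and 0.28, 0.01 and 0.12 in leukemia. The groups did not overlap, and Stat5a moved by -0.35 relative to Stat5b (exact permutation p = 0.1, two-sided, the smallest possible, 0.15 adjusted over the 9 pairs). Transcripts of such close relatives may share probes, which the annotation used here does not resolve.

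Stat3, the factor of interleukin-6 and G-CSF signals, had 4 probe sets, of which 2 were tested. The brighter, 1426587_a_at, read 9.67, 9.64 and 9.61 in wild-type and 9.36, 9.34 and 8.79 in leukemia. All leukemia arrays lay below the wild-type arrays and replicate 3 lowest, but the change of -0.48 did not pass (interval -0.87 to -0.08, limma adjusted p = 0.0594). It passed without leukemia replicate 1 (-0.58, limma adjusted p = 0.0306) and with array weights (-0.50, limma adjusted p = 0.0217), and was -0.29 without leukemia replicate 3 (limma adjusted p = 0.0704) and, under a block for the fluidics run, -0.28 (limma adjusted p = 0.292). Probe set 1460700_at read 9.07, 9.39 and 9.30 in wild-type and 9.28, 9.30 and 8.76 in leukemia, with a change of -0.14 (interval -0.56 to 0.27, limma adjusted p = 0.546) that was 0.03 without leukemia replicate 3. The untested 1459961_a_at read 5.43, 5.09 and 5.17 in wild-type and 5.11, 4.41 and 4.35 in leukemia and differed by -0.61 (exact permutation p = 0.2) and the untested 1424272_at by 0.02 (exact permutation p = 0.8), both below the 40th percentile on all arrays.

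Stat6, the interleukin-4 responsive factor, did not pass with either probe set. The brighter, 1426353_at, read 9.44, 9.69 and 9.60 in wild-type and 9.14, 9.37 and 9.55 in leukemia, a change of -0.22 (interval -0.54 to 0.10, limma adjusted p = 0.230). Probe set 1421708_a_at read 8.28, 8.32 and 8.09 in wild-type and 7.24, 7.999 and 8.21 in leukemia, a change of -0.41 (interval -1.02 to 0.20, limma adjusted p = 0.241). Leukemia replicate 1 was the lowest array with both. Without it the changes were -0.12 and -0.12, and under a block for the fluidics run, which reads that array alone, they were -0.44 and -0.99 (limma adjusted p = 0.0401 and 0.00386, from an arm of 1 array with no replication). The groups overlapped for both probe sets.

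**Figure D3:**
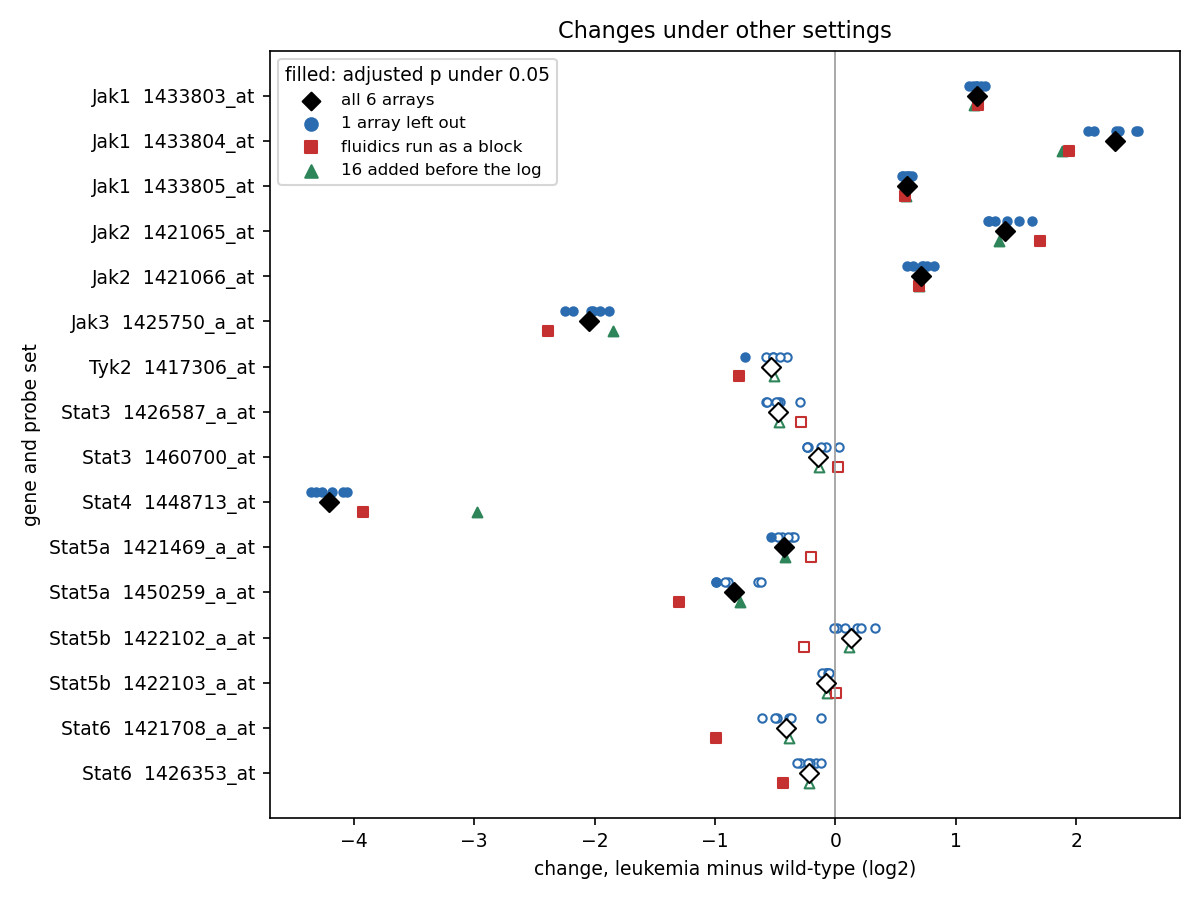
Change of each tested probe set (horizontal axis, leukemia minus wild-type, log2) with all 6 arrays (diamonds), with 1 array left out (circles), with a block for the fluidics run (squares) and with 16 added before the log (triangles), filled where the limma adjusted p is under 0.05. Symbols of Jak1, Jak2, Jak3 and Stat4 are all filled and stay on their side of 0, those of Stat5a are in part open, and those of Stat5b lie on both sides of 0.

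Genes around the kinases in the pathway did not share 1 direction. Their counts are read against the 41.2% of all tested genes that passed, 16.6% as higher and 24.7% as lower, and a gene below the 40th percentile on all arrays of 1 group entered the test through the other group alone. Of 36 listed cytokine receptor chains 27 were measured and 19 tested, and of these 2 rose and 13 fell, with a median change of -0.84 against -0.09 for all tested genes and a background of 41.2% passing. Over all 27 measured the median was -0.40. The rises were those of Csf2rb and Csf2rb2, beta chains of receptors of the interleukin-3 family, by 2.15 and 3.08 (2.45 for Csf2rb2 with the fluidics block). The alpha chains of the receptors for interleukin-3 and GM-CSF went the other way, without overlap. Il3ra changed by -1.22 (limma adjusted p = 0.00904) and Csf2ra by -2.005 (limma adjusted p = 3.53e-04). The largest falls were those of the G-CSF receptor Csf3r (-4.50), the interferon gamma receptor chain Ifngr1 (-3.99) and the interleukin-6 receptor Il6ra (-3.50). Csf3r and Il6ra lay at or below percentiles 30.8 and 29.7 on the leukemia arrays, were tested through wild-type alone, and changed by -3.75 and -2.73 with 16 added before the log. The other Il6ra probe set, untested, differed by -0.61. Ifngr1 changed by -3.20 with the fluidics block. Csf2rb signals through Jak2, and Csf3r and Il6ra signal to Stat3. Without leukemia replicate 1 the count was 2 higher and 15 lower, while calls over all tested probe sets rose from 6946 to 8105.

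Cytokine genes themselves were mostly dim. Of 26 listed 15 were measured and 7 tested, of which 2 rose and 2 fell (median 0.30), beside 41.2% of all tested genes. Il4, which activates Stat6, rose by 4.48 and Osm, an interleukin-6 type cytokine gene and a known Stat5 target, rose by 1.03. Il12a, which encodes a subunit of the Stat4-activating interleukin-12, fell by 4.003 and Tslp, a cytokine that uses an interleukin-7 receptor chain, fell by 2.63. The call of Osm was lost without wild-type replicates 1, 2 or 3 (limma adjusted p = 0.0940, 0.0905 and 0.0848), without leukemia replicate 3 (0.0563) and when the fluidics run was a block (0.47, limma adjusted p = 0.215). The leukemia values of Il12a and Tslp lay at or below percentiles 18.5 and 14.6, and with 16 added before the log their changes were -2.92 and -1.49. Il4 lay at percentiles 16.3 to 20.2 in wild-type and was tested through the leukemia arrays alone, and its change was 3.47 with 16 added and 3.71 with the fluidics block.

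Of 21 inhibitors of the pathway, all measured, 19 were tested, and 4 rose and 6 fell (median -0.12), beside 41.2% of all tested genes. Socs2, a Stat5-induced inhibitor, rose by 5.01, Cish, which blocks Stat5 docking sites, rose by 2.12, and the adaptor gene Dok2 rose by 0.99. The phosphatase genes Ptprc, which encodes CD45, and Ptpn6 fell by 7.64 and 0.75, and Socs5 fell by 2.48. Socs2 lay at percentiles 35.4 to 39.3 in wild-type and was tested through the leukemia arrays alone. Ptprc and Socs5 lay at or below percentiles 12.4 and 32.3 in leukemia, were tested through wild-type alone, and changed by -6.16 and -1.86 with 16 added. The call of Cish was lost with the fluidics run as a block (1.35, limma adjusted p = 0.0542).

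Of 30 listed STAT target genes 26 were measured and 19 tested, and 8 rose and 8 fell (median 0.11), beside 41.2% of all tested genes. Besides Socs2 and Cish the largest rise was that of the AP-1 subunit gene Junb (1.97), and the largest falls were those of Cebpd, a C/EBP factor gene induced through Stat3 (-4.43), the survival gene Bcl2 (-3.13) and the cyclin gene Ccnd1 (-2.17). Cebpd lay at or below percentile 20.4 in leukemia, was tested through wild-type alone, and changed by -3.27 with 16 added. Other probe sets of Bcl2 differed in size. Another tested set changed by -0.44, overlapped between the groups and did not pass (limma adjusted p = 0.166). A further tested set changed by -3.50 (limma adjusted p = 0.00149), and the untested sets by -2.05 and -1.93, all without overlap. The count fell to 8 (5 higher, 3 lower) without wild-type replicate 2 and to 9 (5 higher, 4 lower) without wild-type replicate 3. Calls over all 18098 tested probe sets fell likewise, from 6946 to 4404 and 4393. The call of Junb was lost without wild-type replicates 1, 2 or 3 (limma adjusted p = 0.0654, 0.0523 and 0.0623) and its change was 3.03 with the fluidics run as a block. Bcl2 did not pass when wild-type replicate 2 was left out (-2.99, limma adjusted p = 0.0556) or with that block (-2.78, limma adjusted p = 0.0676), and its change was -2.27 without leukemia replicate 2 and -3.82 without leukemia replicate 3.

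Of 14 listed other STAT genes and partners 13 were measured and tested, and 5 rose and 2 fell (median 0.16), beside 41.2% of all tested genes. Gab2 and Grb2, adaptors that link receptors to the Ras pathway, rose by 2.13 and 0.96 and the coactivator gene Crebbp rose by 0.79, while the coactivator gene Ncoa1 and the adaptor gene Sh2b1 fell by 3.05 and 1.06 (Ncoa1 by 2.34 with the fluidics block). Stat2 did not pass (change -0.52, limma adjusted p = 0.142). The count was 4 (2 higher, 2 lower) without wild-type replicate 2, where calls over all tested probe sets fell from 6946 to 4404. The call of Crebbp was lost without wild-type replicates 1, 2 or 3 (limma adjusted p = 0.0741, 0.0561 and 0.0866), and its change was 1.27 with the fluidics run as a block. Other probe sets of the same genes differed in size, as for Grb2, where the second gave 0.22, and for Crebbp, where the others gave 0.65 and 0.10, none of which passed (limma adjusted p = 0.536, 0.0989 and 0.720).

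**Figure D4:**
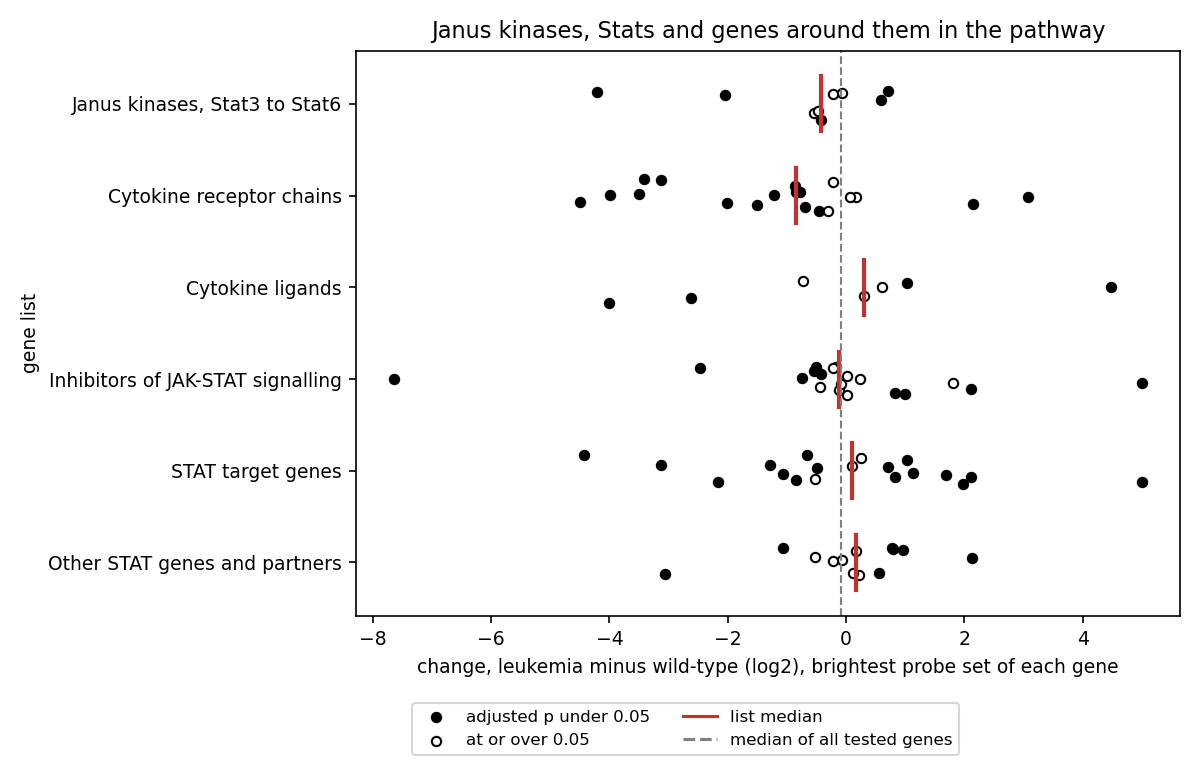
Change of each tested gene by its brightest probe set (horizontal axis, leukemia minus wild-type, log2), for the 9 Janus kinase and Stat genes and for 5 lists of genes around them, filled where the limma adjusted p is under 0.05, with the median of each list as a vertical bar and that of all tested genes as a dashed line. Receptor chains have the lowest median (-0.84), and every list holds genes on both sides of 0.

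Only Jak3 and Stat4 passed with a change of at least 2-fold by their brightest probe set, and their profiles over the 6 arrays were set against those of the 1967 other tested genes with a change of that size. The genes most like Jak3 were Mboat1, Scmh1 and Lrrc1, and those most like Stat4 were Arsb, Pcbd1 and Flna (Pearson's r over 6 arrays above 0.95 for all of them, up to 0.9996 for Arsb). Jak3 had 662 genes above 0.95, or 33.7%, and Stat4 had 704, or 35.8%. A high r here follows largely from the step between the groups, which every gene of that size shares.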

How the data were processed

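Expression was measured on Affymetrix Mouse430_2 arrays, 1 for each of 6 samples, from 200 ng of total RNA, per the labels. The authors deposited linear intensity values (3.31 to 18869) made with RMA, per the submitters' processing notes; its version and further scaling are not given in the sources used here. A log2 table had been assumed in the design, so log2 was taken with no pseudocount. Deposited array run records gave the hybridization date, by which arrays were grouped into what is called the fluidics run here (2 runs, 1 chip lot). Median intensity per array was 71.6 to 79.9, and 6 arrays limit the precision. Whether wild-type samples pool animals is not stated, so a p-value reflects no more than how far these samples scatter, which may be technical.

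Symbols came from the platform annotation (18 of 18 member gene IDs matched RefSeq, GRCm38.p6). All 18098 non-control probe sets at or above the 40th percentile on at least 3 arrays were fitted in R 4.3.3 using limma 3.58.1 (lmFit and trended eBayes, two-sided, Benjamini-Hochberg, threshold 0.05). Genes were read from their brightest probe set. Differences between probe sets were given exact permutation tests. On simulated data of 18098 probe sets the fit recovered 8% of changes of 0.5, 38% of changes of 1 and 94% of changes of 2 (log2), with 5 false calls. These changes were given to 100, 50 and 50 probe sets, a far smaller share than the 38.4% that passed in the data. The Benjamini-Hochberg cutoff depends on that share, so the recovery rates do not describe the data. Members and lists were chosen with earlier results of these data known. Named pathway genes were the 3 largest rises and falls of each list that passed without overlap, with Il3ra, Csf2ra and Stat2 added. Alternatives covered filter, probe set rule, pseudocount, scaling, variance moderation, array weights, blocks and each array left out. Figures were drawn with matplotlib 3.10.9.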

Additional observations from a re-analysis of the deposited data

How the results depend on the processing

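Jak1 (3 probe sets), Jak2 (2), Jak3 and Stat4 kept their direction and their call under every alternative in which they were tested. The count of changed genes among the 9 was 3 with only probe sets whose IDs have no shared ending, where 6 genes were tested, and 4 to 6 with 1 array left out, and that of probe sets was 7 to 9. With 1 array left out the lists gave 12 to 17 receptor, 3 to 6 ligand, 7 to 12 inhibitor, 8 to 17 target and 4 to 8 partner genes, and the stricter filter left 8 receptor genes (11 tested). Calls over all tested probe sets also ran from 4393 to 8105 with 1 array left out. Signs turned for values near 0. Stat3 1460700_at was 0.022 with the fluidics run as a block and -0.23 to 0.032 with 1 array left out. Stat5b 1422102_a_at was -0.26 with that block and -0.013 to 0.33 with 1 array left out, Stat5b 1422103_a_at was 0.0036 after centring and 0.0021 with that block, and the mean of both Stat5b sets gave 0.029. With 16 added before the log the difference in change between Jak1 1433804_at and 1433805_at was 1.29. Same-numbered arrays did not deviate together (r of -0.09, 0.04 and 0.01, against -0.13 to 0.10 for arrays of different number). With 3 arrays a group this check cannot exclude a pairing of the samples. The replicate block gave 4 changed genes and 7 changed probe sets among the members and 5823 over all probe sets, against 6946. Centring moved the median of all tested probe sets from -0.03 to 0.05. All calls rest on 3 arrays a group, and the cause of the differences between settings was not tested.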
